A study of Mus musculus with 8 samples.

Results

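The 10 genes of glucose uptake and glycolysis described here were measured in mouse regulatory T cells, the CD4 T cell subset defined by the transcription factor Foxp3. They are the glucose transporter genes Slc2a1 and Slc2a3, the hexokinase genes Hk1 and Hk2, the phosphofructokinase genes Pfkl and Pfkp, and Pgk1, Tpi1, Pkm and Ldha. The genes were chosen by name, and their probe sets are those whose only Entrez identifier is that of the gene. This gave 24 probe sets of the 37579 with 1 identifier, and 10 of the 20665 genes that such probe sets represent. The study hybridised RNA from sorted CD4+CD25+ cells to 8 one-colour Affymetrix Mouse430_2 arrays in 4 groups of 2. GFP-RFP+ cells, labelled peripherally induced, and GFP+RFP+ cells, labelled thymically induced, each came from lymph nodes and from spleen. The mice were untreated and 14 to 17 weeks old, and organs of 20 mice were pooled. The labels used here name neither the mouse strain nor the alleles behind the fluorescent reporters. The 2 arrays of a group are named technical replicates of pooled cells, so each group is 1 sample and the spread between mice or sorts was not measured.

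Glycolysis splits glucose into pyruvate in the cytosol and yields ATP without oxygen, and lactate dehydrogenase then reduces pyruvate to lactate. In T cells the pathway rises on activation, when antigen receptor and mTOR signals and the transcription factors Myc and HIF-1 raise transporter and enzyme levels. Resting regulatory T cells are known to rely less on it than activated conventional T cells. SLC2A1 (GLUT1) is the transporter most closely tied to T cell activation and SLC2A3 (GLUT3) is a high-affinity neuronal and leukocyte form. Hexokinase 1 is the housekeeping isoform and hexokinase 2 the inducible one.

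The upstream sequences of 4 of the genes are shown because Slc2a1, Hk2 and Pkm had the lowest log2 differences between GFP+RFP+ and GFP-RFP+ cells by their main probe sets, and Ldha is set beside them as a gene that differed little. Each is the 250 bases before an annotated RefSeq transcription start in GRCm38.p6, 5′ to 3′ on the gene's strand. Capitals mark ACGTG on either strand (CACGT on the printed strand), a form of the core of the hypoxia response element bound by HIF-1. Other forms of that core were not searched for. Adjacent matches overlap where the letters read CACGTG. The Slc2a1 window is chr4:119108495-119108744 on the plus strand, the Hk2 window chr6:82774455-82774704 on the minus strand, the Pkm window chr9:59656977-59657226 on the plus strand and the Ldha window chr7:46845554-46845803 on the plus strand.
Slc2a1: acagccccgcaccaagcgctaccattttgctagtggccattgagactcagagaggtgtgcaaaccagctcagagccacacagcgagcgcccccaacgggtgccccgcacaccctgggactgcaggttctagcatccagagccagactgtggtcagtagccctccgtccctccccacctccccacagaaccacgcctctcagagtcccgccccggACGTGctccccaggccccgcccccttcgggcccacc
Hk2: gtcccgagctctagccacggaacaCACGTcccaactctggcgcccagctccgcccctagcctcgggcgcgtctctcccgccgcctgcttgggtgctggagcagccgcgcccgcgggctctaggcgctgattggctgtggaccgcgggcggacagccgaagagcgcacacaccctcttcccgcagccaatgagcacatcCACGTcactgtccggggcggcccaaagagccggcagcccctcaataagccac
Pkm: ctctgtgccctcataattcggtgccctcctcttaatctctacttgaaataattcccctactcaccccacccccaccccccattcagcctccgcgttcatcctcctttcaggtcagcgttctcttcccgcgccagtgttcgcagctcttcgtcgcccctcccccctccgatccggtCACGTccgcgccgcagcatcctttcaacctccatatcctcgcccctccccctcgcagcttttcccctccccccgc
Ldha: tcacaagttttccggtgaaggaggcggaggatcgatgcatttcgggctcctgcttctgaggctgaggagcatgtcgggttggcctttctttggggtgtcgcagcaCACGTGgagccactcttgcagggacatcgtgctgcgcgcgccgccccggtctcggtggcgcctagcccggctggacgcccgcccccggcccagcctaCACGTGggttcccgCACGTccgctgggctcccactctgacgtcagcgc
The letters occur once upstream of Slc2a1, 36 to 32 bases before the start, and at 2 places upstream of Hk2. Ldha holds 5 matches, 4 of them in a pair of CACGTG palindromes. Of the 12 windows of 9 genes in the RefSeq table, 5 windows of 5 genes hold a match, the fifth gene being Pgk1, and a second start of Pkm and of Ldha has none. The letters are in 16.6% of the 32851 windows of all genes. A match is a description of the sequence only, and no binding was measured here.

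The values are model-based array intensities on a linear scale, and differences are given as log2. Probe sets bind with different strength, so the intensity of one probe set is not set against that of another, and which isoform of a pair is the more abundant was not read from them. Of the 24 probe sets, 21 were called present on all 8 arrays, compared with 38.8% of all 45037 probe sets that are not controls. All 10 genes have at least 1 probe set present on every array. For each gene the lead probe set, the brightest of those called present on the most arrays, carries the main description. The calls stand in columns that name no sample, so they are given only as a number of arrays. The cells carried transcripts of the labelled lineage: Foxp3 read 905 to 1084 on the GFP-RFP+ arrays and 1386 to 1580 on the GFP+RFP+ arrays, and 8 of 9 T cell and regulatory T cell marker genes had a probe set present on all 8 arrays, the other being Cd3e on 7. The summed intensity of these markers was 23801 to 25689 on GFP-RFP+ arrays and 19821 to 21502 on GFP+RFP+ arrays. Most of this gap was Ctla4, an inhibitory receptor, at 5243 to 5506 and 1843 to 2181, whereas Foxp3 and both probe sets of Il2ra, the CD25 gene, read higher on the GFP+RFP+ arrays of each organ.

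Slc2a1 was lower in GFP+RFP+ than in GFP-RFP+ cells in both organs by all 3 of its probe sets. Its lead probe set, 1434773_a_at, read 687 and 710 on the 2 lymph node GFP-RFP+ arrays, 541 and 584 on the lymph node GFP+RFP+ arrays, 696 and 933 on the spleen GFP-RFP+ arrays and 501 and 525 on the spleen GFP+RFP+ arrays. The 4 GFP+RFP+ arrays lay below the 4 GFP-RFP+ arrays with no overlap, while the 2 spleen GFP-RFP+ arrays differed from each other by 0.42 log2. The log2 difference was -0.31 in lymph node and -0.65 in spleen, and -0.48 ± 0.15 (SE) over the 4 pools, a level 1.40-fold higher in GFP-RFP+ cells (limma adjusted p = 0.329). The other probe sets gave -0.62 ± 0.14 and -0.60 ± 0.15, with adjusted p of 0.291 and 0.297. Between organs the lead probe set differed by 0.04 ± 0.15, and this value turned to -0.02 when arrays were centred on their medians. Over the 8 arrays the 3 probe sets followed each other with Pearson r of 0.97 to 0.98, given as a description since the arrays come from 4 pools.

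Slc2a3 did not show that pattern. Its lead probe set 1437052_s_at read 1163 and 1229 in lymph node GFP-RFP+, 1272 and 1361 in lymph node GFP+RFP+, 1445 and 1299 in spleen GFP-RFP+ and 1548 and 1416 in spleen GFP+RFP+. The groups of both comparisons overlapped. The population difference was 0.13 ± 0.11 (adjusted p = 0.613) and the organ difference, spleen minus lymph node, 0.18 ± 0.11 (adjusted p = 0.771). A second bright probe set, 1455898_x_at, had an r of 0.91 with it over the 8 arrays. The remaining 2 were dim: 1421924_at was present on 2 arrays at 3.39 to 15.0, and 1427770_a_at on 7 arrays at 12.3 to 26.8, and neither followed the bright pair (r between -0.12 and 0.16). The suffixes _s_at and _x_at mark probe sets that may bind further transcripts.

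**Figure D1:**
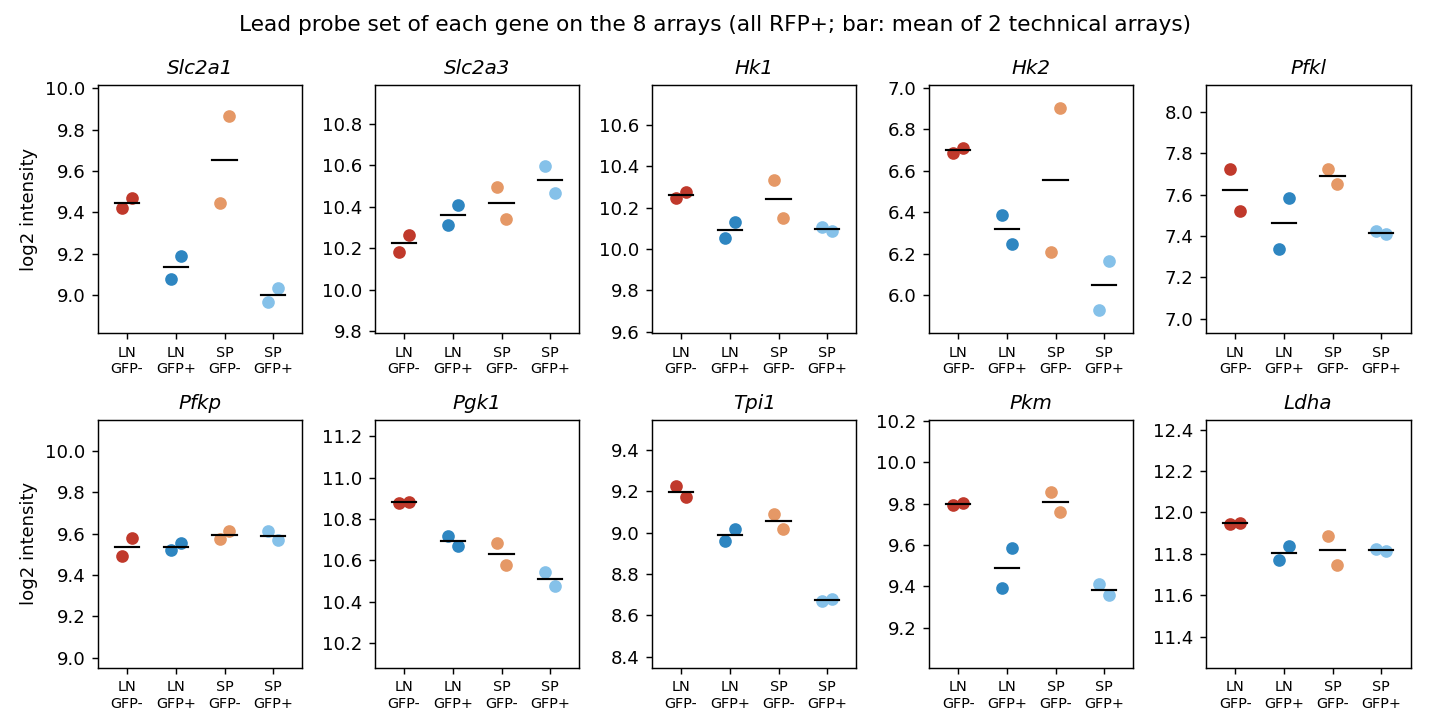
Log2 intensity of the lead probe set of each of the 10 genes on the 8 arrays, 1 panel per gene, every panel spanning the same log2 range. Points are single arrays, bars the mean of the 2 technical arrays of a pool; LN is lymph node, SP spleen, and all cells are RFP+. Slc2a1 and Pkm sit lower on all 4 GFP+RFP+ arrays, Hk2 has a wide pair in spleen GFP-RFP+ cells, and Pfkp hardly moves.

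Hexokinase phosphorylates glucose and so holds it in the cell. Hk2 read 103 and 105 in lymph node GFP-RFP+ cells, 83.7 and 75.8 in lymph node GFP+RFP+ cells, 74.0 and 120 in spleen GFP-RFP+ cells and 60.8 and 71.7 in spleen GFP+RFP+ cells. The populations overlapped, since 1 spleen GFP-RFP+ array lay below both lymph node GFP+RFP+ arrays, and that pool's 2 arrays differed by 0.70 log2. The difference was -0.45 ± 0.12 over the 4 pools (adjusted p = 0.302). It was -0.27 without the higher of those 2 arrays and -0.62 without the lower. The lead probe set of Hk1, 1437974_a_at, ranged from 1061 to 1293 over the 8 arrays, with the 4 GFP+RFP+ arrays, 1061 to 1120, below the 4 GFP-RFP+ arrays, 1138 to 1293. Its population difference was small, -0.16 ± 0.11 (adjusted p = 0.533), and its organ difference was -0.01 ± 0.11. A dim Hk1 probe set, 1420901_a_at, was present on all 8 arrays at 20.3 to 33.4, and its technical arrays differed by up to 0.71 log2, more than its population difference in either organ.

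Phosphofructokinase catalyses the committed step of glycolysis, and Pfkl and Pfkp encode its liver and platelet subunits. Pfkp was the steadiest of the 10 lead probe sets: 1416069_at ranged from 719 to 783 over the 8 arrays, a 1.09-fold range. Its difference was 0.00 in lymph node and 0.00 in spleen to 2 decimals. The other Pfkp probe sets were dim, at 34.6 to 54.1 and 21.7 to 38.6, though called present on all 8 arrays. Pfkl ranged from 162 to 211 by its lead probe set 1453541_at, with a population difference of -0.22 ± 0.11 (adjusted p = 0.453). Its 3 probe sets did not follow each other over the arrays, with r of -0.10 to 0.42.

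Tpi1, which interconverts the 2 triose phosphates, read 597 and 577 in lymph node GFP-RFP+, 498 and 518 in lymph node GFP+RFP+, 544 and 519 in spleen GFP-RFP+ and 407 and 410 in spleen GFP+RFP+ by its lead probe set 1452927_x_at. All 4 GFP+RFP+ arrays lay below the 4 GFP-RFP+ arrays, by a margin under 1 intensity unit at the closest pair, and spleen GFP+RFP+ cells stood lowest. The population difference was -0.29 ± 0.12 (adjusted p = 0.388) and the organ difference -0.23 ± 0.12 (adjusted p = 0.745). Its 3 probe sets followed each other with r of 0.90 to 0.99.

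Pgk1, which makes the first ATP of the pathway, read 1883 and 1890 in lymph node GFP-RFP+, 1683 and 1630 in lymph node GFP+RFP+, 1645 and 1530 in spleen GFP-RFP+ and 1492 and 1426 in spleen GFP+RFP+. Lymph node GFP-RFP+ cells were highest and spleen GFP+RFP+ cells lowest, and the other 2 pools overlapped. The population difference was -0.15 ± 0.11 (adjusted p = 0.549) and the organ difference -0.22 ± 0.11 (adjusted p = 0.738). The 3 Pgk1 probe sets had r of 0.93 to 0.97.

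Pkm, which makes pyruvate and the second ATP, has 1 probe set, 1417308_at, for which the annotation does not tell the splice forms apart. It read 889 and 893 in lymph node GFP-RFP+, 673 and 769 in lymph node GFP+RFP+, 926 and 866 in spleen GFP-RFP+ and 681 and 656 in spleen GFP+RFP+. The 4 GFP+RFP+ arrays lay clear of the 4 GFP-RFP+ arrays. The difference was -0.31 in lymph node and -0.42 in spleen, and -0.37 ± 0.11 over the 4 pools (adjusted p = 0.327), whereas the organ difference was -0.05 ± 0.11. Ldha, the lactate dehydrogenase subunit, read 3439 to 3955 on the 8 arrays. Its difference was -0.15 in lymph node and 0.00 in spleen to 2 decimals, and its sign over the 4 pools, -0.07 ± 0.12, turned to 0.13 under quantile normalization.

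**Figure D2:**
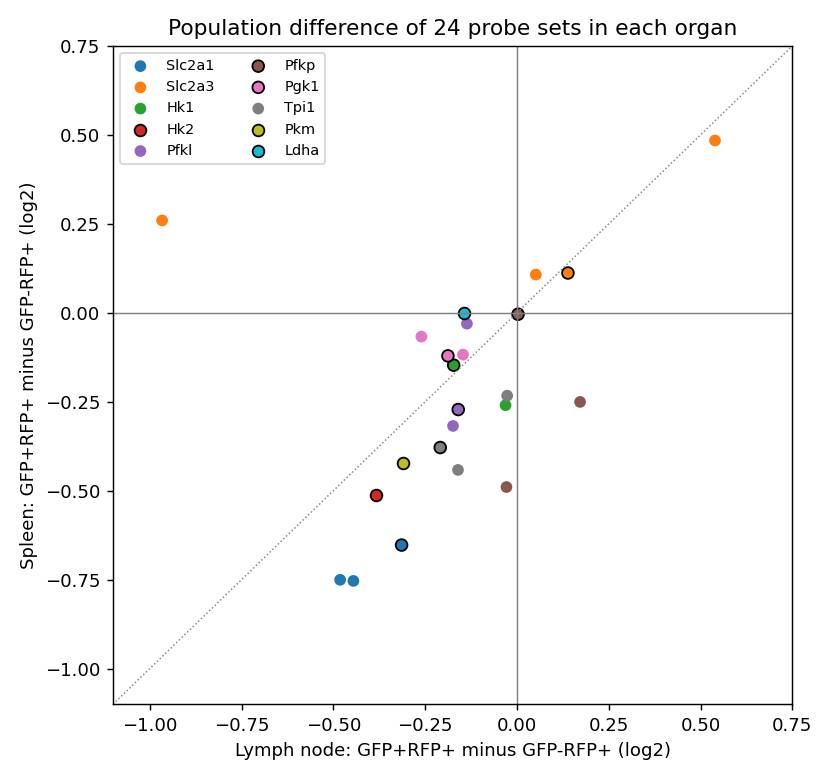
Difference between GFP+RFP+ and GFP-RFP+ cells (log2) in lymph node (horizontal) and spleen (vertical) for the 24 probe sets, coloured by gene; black edges mark lead probe sets and the dotted line is equality. In the lower left, the 3 Slc2a1 probe sets are farthest from 0 in spleen, at -0.65 to -0.75, while a dim Slc2a3 probe set lies apart at the upper left.

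The first comparison of the design asks how the 2 populations differ. It was fitted with limma on the 4 pool means with organ as covariate, which leaves 1 residual degree of freedom. In that fit 0 of 45037 probe sets passed an adjusted p of 0.05 (0%; 7282 had an unadjusted p under 0.05, which is 16.2%), and so 0 of the 24 probe sets passed. The lowest adjusted p of any probe set in that fit (limma) was 0.282, so no gene could be given a lower value below. Of the 24, 4 had an unadjusted p under 0.05, a share near that of all probe sets: 2 of Slc2a1, the 1 of Hk2 and the dim 1421924_at of Slc2a3. By value alone, 18 of the 24 were lower in GFP+RFP+ cells in both organs, 3 were higher in both and 3 changed sign between organs. Genes with several probe sets count more than once here. By lead probe set 8 of the 10 genes were lower in both organs, including Ldha, at -0.0004 in spleen. Among all probe sets 34.5% were lower in both organs, and among those present on all 8 arrays 45.8%. The median difference of the 24 was -0.16, compared with -0.01 for all probe sets and -0.04 for those present on all 8 arrays. Under quantile normalization the median of the 24 was -0.10 and that of all probe sets 0.04, and 17 rather than 21 of them were lower over the 4 pools.

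In 6 of the 24 probe sets, all 3 of Slc2a1 and 1 each of Hk1, Tpi1 and Pkm, all 4 GFP+RFP+ arrays lay below all 4 GFP-RFP+ arrays. This held for 12.0% of all probe sets and for 23.8% of those present on all 8 arrays. The 6 are all among the 21 present on all 8 arrays, so the second share is the one to set beside 6 of 21, and it is near it. The 4 GFP+RFP+ arrays lay above the others in 0 of the 24, compared with 7.42% of all probe sets and 13.1% of those present on all 8 arrays. A fit added after seeing the data used a prior variance that follows the mean level (limma). In it 7 of the 24 were lower at an adjusted p under 0.05 and 0 higher. Of all probe sets 9.72% were lower by it, and the share among those present on all 8 arrays was not taken. The 7 were the 3 of Slc2a1 (adjusted p of 0.000165 to 0.00103), Pkm (0.0013), 2 of Tpi1 (0.0108 and 0.0244) and Hk2 (0.0185), the last resting in part on 1 array as given above. With 8 arrays as separate samples 2 of the 24 were lower (6.29% of all), with the technical replicate number as a block 1 was (3.99%), with an offset of 16 before log2 2 were (5.97%), and among the 22519 probe sets at or above the median level 5 of 21 were (13.7%). With probe sets present on at least 2 arrays 0 were (0%). In each of these fits 0 of them were higher.

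Of 16 probe sets of 8 proliferation genes, 0 passed the 4-pool fit, and 7 were lower with the prior that follows the mean level and 0 higher. Of all probe sets 9.72% were lower and 5.02% higher with that prior. In 4 of the 16 all GFP+RFP+ arrays lay below all GFP-RFP+ arrays. This held for 12.0% of all probe sets and 23.8% of those present on all 8 arrays. The 4 are all among the 12 of the 16 present on all 8 arrays. The second share is thus the one to set beside 4 of 12, and the 2 were not compared by a test. Mki67, the Ki-67 antigen of cycling cells, differed by -0.70 (adjusted p = 0.282), while both Mcm2 probe sets, for a helicase subunit, differed by -0.13 and -0.16. The summed intensity of the 16, to which Pcna, the replication clamp, gave the most, was 6503 and 6219 in lymph node GFP-RFP+ and 5101 and 5110 in lymph node GFP+RFP+ cells. In spleen it was 5973 and 5349 in GFP-RFP+ and 4428 on both GFP+RFP+ arrays. The part of cycling cells in the differences above was not tested, and in bulk samples fewer cells of a type and less RNA per cell cannot be told apart. The 75th percentile of intensity, 141 to 148 on GFP-RFP+ arrays and 133 to 139 on GFP+RFP+ arrays, moved the same way, and its part was tested only by the quantile normalization above.

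Spleen and lymph node were compared in the same fit. None of the 24 probe sets passed (limma, lowest adjusted p = 0.677), and 0 had an unadjusted p under 0.05, where 0 (0%) and 3620 (8.04%) of all probe sets did. The 5 alternatives that gave calls elsewhere called 0 of them: those with 8 arrays (0.651%), the block (0.153%), the offset (0.619%), the prior that follows the mean level (1.62%) and the filter on the median level (0.671%). The 3 probe sets of Pgk1 differed by -0.21 to -0.23 and the 3 of Tpi1 by -0.22 to -0.28. The 2 bright ones of Slc2a3 differed by 0.18 and 0.17, higher in spleen. Of its dim ones, 1421924_at (0.27) was present on only 2 arrays. The other, 1427770_a_at (0.285), went opposite ways in the populations. In GFP-RFP+ cells it read 19.9 and 20.7 in spleen against 25.2 and 25.8 in lymph node, and in GFP+RFP+ cells it was higher in spleen. In 2 of the 24, 1 of Pgk1 and 1 of Tpi1, all 4 spleen arrays lay below all 4 lymph node arrays (1.88% of all probe sets; 2.85% of those present on all 8 arrays). In 0 of the 24 they lay above (2.84% and 2.89%). The spleen arrays carried transcripts of other blood cells. The 4 myeloid markers summed to 1145 to 1926 on the spleen arrays and to 200 to 236 on the lymph node arrays, and the 3 erythroid markers to 200 to 541 and 23.0 to 28.6. The B cell markers summed to 376 to 651 in spleen and 143 to 215 in lymph node, and the 2 CD8 T cell markers to 346 to 385 in GFP+RFP+ and 213 to 247 in GFP-RFP+ cells. The last gap came from 3 of the 5 Cd8a probe sets, while Cd8b1 differed by 0.03. Of the 3, 1444078_at (2.33) and 1451673_at (0.91) were present on all 8 arrays, and 1440811_x_at (2.64) was present on 1. Erythroid Hba-a1 and NK cell Klrb1c were present on 0 arrays. The part of these cells in the organ differences was not tested.

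**Figure D3:**
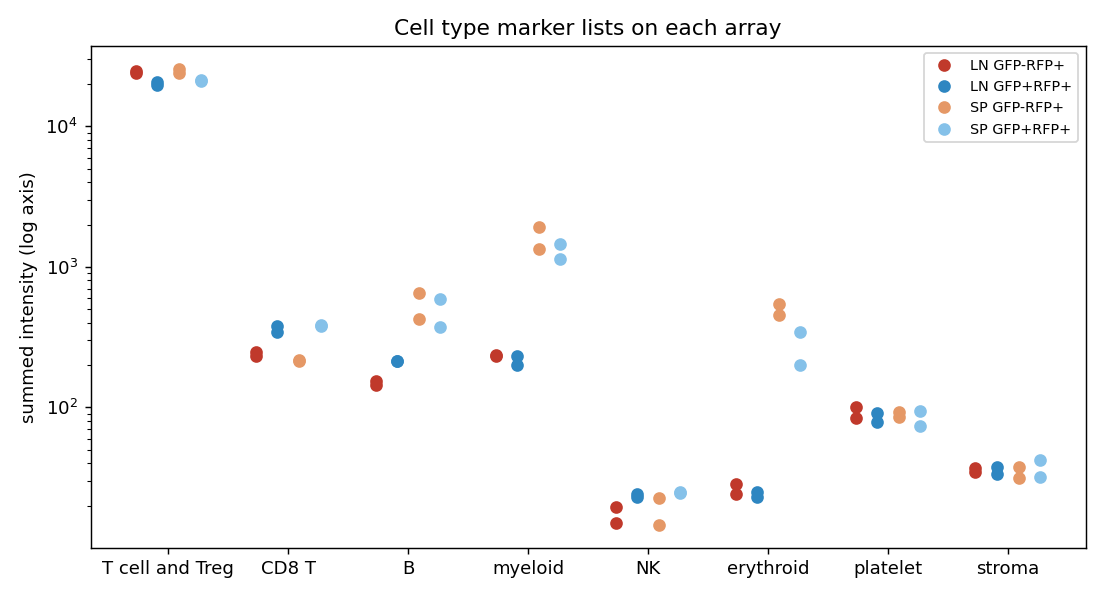
Summed intensity of the probe sets of each cell type marker list (log axis), 1 point per array, coloured by group. Myeloid, erythroid and B cell sums are higher on the 4 spleen arrays, CD8 T cell sums are higher in GFP+RFP+ cells through Cd8a, and T cell and regulatory T cell markers are bright on every array.

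Whether the population difference itself differed between organs was tested over the 8 arrays, where the error is technical spread only. Of the 24 probe sets 0 passed (limma, adjusted p under 0.05), as 1 of 45037 (0.00222%) did. The technical spread was similar to that of other probe sets: the median difference between the 2 arrays of a pool was 0.10 log2 for the 24 and 0.10 for those present on all 8 arrays. It was widest in the spleen GFP-RFP+ pool, with a median of 0.15 for the 24 compared with 0.08 to 0.10 in the other pools. The control ratios of 3′ over 5′ signal, a sign of intact RNA, were 0.20 to 0.36 log2 for Gapdh on all arrays. For beta-actin they were 0.37 to 0.43 on GFP+RFP+ arrays and 0.24 to 0.38 on GFP-RFP+ arrays, and the part of this in the population differences was not tested.

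Of 25 other listed glycolysis enzymes and transporters 24 had a probe set with a single identifier, Gapdh being not analysed here, and 12 had 1 present on all 8 arrays. In the 4-pool fit 0 of their 43 probe sets passed, and their median population difference was -0.09. With the prior that follows the mean level, 6 were lower in GFP+RFP+ cells and 2 higher, where 9.72% and 5.02% of all probe sets were. Of the 6, 1 of Aldoa was called present on 0 arrays and 1 of Aldoc on 3. The 2 higher were enolase genes, which are named after their values were seen. Eno3, the muscle form, read 214 and 221 in lymph node GFP-RFP+ and 537 and 534 in lymph node GFP+RFP+ cells, and 212 and 176 against 490 and 521 in spleen (1.34 log2; adjusted p = 0.282 in the 4-pool fit and 8.3e-08 with that prior). Eno1, the common form, differed by 0.24. Aldoa, aldolase A, differed by -0.18 to -0.21 on its 3 probe sets present on all 8 arrays, 1 of which passed with that prior (0.0234). Bpgm, which makes the bisphosphoglycerate of red cells, differed by -0.16 to -0.48 between populations and by 0.37 to 1.02 between spleen and lymph node. All 3 of its probe sets were higher in spleen with that prior, as were 547 of all 45037 probe sets, and 184 were lower. The erythroid marker sums given above were higher in the same arrays, and their part in the Bpgm difference was not tested.

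Genes for the fate of pyruvate and lactate centred on 0.01 over 25 probe sets, and 0 passed the 4-pool fit. With the prior that follows the mean level, 2 of the 25 were lower in GFP+RFP+ cells and 0 higher. Of all probe sets 9.72% were lower and 5.02% higher with that prior. The 2 belong to Slc16a1, and 1446274_at of them was called present on 1 array. Slc16a1, which encodes the lactate transporter MCT1 and is named after its values were seen, by 1415802_at read 384 to 418 on the 2 lymph node GFP-RFP+ arrays and 262 to 266 on the lymph node GFP+RFP+ arrays. In spleen it read 365 and 415 against 280 and 274. The difference was -0.55 (adjusted p = 0.285; 0.000206 with the prior that follows the mean level). Pdk1, a kinase that restrains pyruvate dehydrogenase, differed by -0.27 to -0.48 between spleen and lymph node on its 4 probe sets. With that prior 2 of the 4 were lower in spleen. Of all 45037 probe sets, 184 were lower in spleen with that prior and 547 higher. The Ldhb subunit differed by 0.05 to 0.22 between populations.

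Of 31 probe sets of pathway regulators, 0 passed the 4-pool fit. Egln3, a prolyl hydroxylase that marks HIF proteins for degradation and is itself a HIF target, read 168 and 150 in lymph node GFP-RFP+ and 46.4 and 52.6 in lymph node GFP+RFP+ cells. In spleen it read 133 and 141 against 40.7 and 33.6, a difference of -1.79 ± 0.13 over the pools (adjusted p = 0.282). Hif1a, the oxygen-regulated HIF-1 subunit, differed by -0.49 to -1.59 on its 3 probe sets present on all 8 arrays, and all 4 GFP+RFP+ arrays lay below the GFP-RFP+ arrays on each (adjusted p of 0.282 to 0.292). Irf4, a factor induced by antigen receptor signals, differed by -1.35 ± 0.16 (adjusted p = 0.282) by 1421173_at. Myc went the other way: it read 540 to 625 in lymph node GFP-RFP+ and 769 to 820 in lymph node GFP+RFP+ cells, and 479 to 550 against 746 to 765 in spleen, a difference of 0.50 (adjusted p = 0.291). With the prior that follows the mean level, 8 of the 31 were lower and 1 higher, where 9.72% of all probe sets were lower and 5.02% higher. Mtor, Rptor and Akt1 by their brightest probe sets differed by 0.12, 0.04 and 0.00. For Mtor, all GFP+RFP+ arrays lay above the GFP-RFP+ arrays on that probe set. A dimmer Mtor probe set present on all 8 arrays, 1436267_a_at at 26.1 to 51.5, differed by 0.45.

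**Figure D4:**
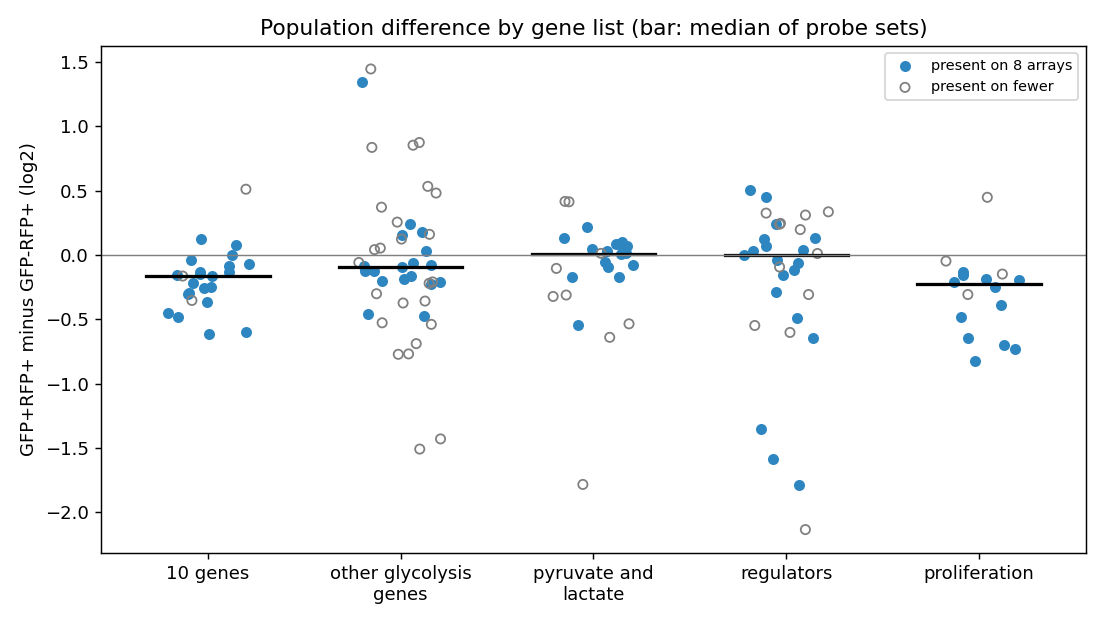
Difference between GFP+RFP+ and GFP-RFP+ cells (log2, over the 4 pools) for each probe set of the 10 genes and of 4 lists; filled points were called present on all 8 arrays and bars are medians. The 10 genes have a median of -0.16, and the regulators hold the lowest filled points, Egln3, Hif1a and Irf4, at -1.35 to -1.79.

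Averaged over the 10 lead probe sets and centred, the profile was 0.08 to 0.11 on the 4 GFP-RFP+ arrays and -0.14 to -0.03 on the 4 GFP+RFP+ arrays. Among 15136 other named probe sets present on all 8 arrays, those with the most similar profile belonged to Tfrc, Dusp4, Epc1, Sptbn1 and Mcm6, with Pearson r of 0.992 to 0.996 over the 8 arrays. Tfrc encodes the transferrin receptor and Mcm6 a subunit of the replicative helicase. These correlations are a description over arrays of 4 pools.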

How the data were processed

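The values analysed were array intensities on a linear scale, which the authors deposited for 8 samples in 1 table with a column per sample. Each of these 8 columns equals 1 signal column of a second deposited table at all 45101 probe sets, within 0.006 units. Per the file headers, that table was made with dChip model-based expression against 1 baseline array, without log transformation, whereas the submitters' processing notes name RMA. The second table also holds detection calls and the annotation. Its 16 array columns name no sample, so its signals served only for that check and its calls only as numbers of arrays.

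Values were put on the log2 scale with no offset, and 64 control probe sets were left out. Technical arrays were averaged, and the 4 pools were fitted with limma 3.58.1 in R 4.3.3 (population and organ, lmFit and eBayes, Benjamini-Hochberg over 45037 probe sets, threshold 0.05). The script was tested on simulated data. Residuals in this design also hold any difference between organs in the population effect. Symbols come from a RefSeq table of GRCm38.p6, which named 34316 of the 37579 probe sets with 1 identifier. Upstream sequences are RefSeq's.

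Named by rule are all 10 genes with every probe set and the 5 genes with the most similar profile. The rule also named the 3 pathway genes with the largest population difference of the same sign in both organs, which are Egln3, Hif1a and Irf4. Other genes of the lists, among them Myc, Pdk1, Bpgm, Slc16a1 and the enolases, are named outside this rule. The members and lists were chosen with earlier results of these data known. Same-numbered technical arrays of different pools did not deviate together (r of -0.04 to 0.02 over probe sets), so the number does not pair them. The number of arrays limits the precision. Alternatives covered normalization, an offset, filters, the treatment of technical arrays, the prior variance and leaving out each array.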

Additional observations from a re-analysis of the deposited data

Results flagged for a closer look

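One dim Slc2a3 probe set, 1427770_a_at, differed in opposite directions in the organs: GFP+RFP+ minus GFP-RFP+ was -0.97 log2 in lymph node and 0.26 in spleen, with both arrays of each pool on the same side. It read 12.3 to 26.8 and was called present on 7 of 8 arrays. The difference between the organs had an adjusted p of 0.511 over the 8 arrays (limma, technical spread only), and the 2 bright Slc2a3 probe sets did not show it.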

How the results depend on the processing

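The number of probe sets called depended on the processing. For the population comparison it was 0 in the 4-pool fit, and 0 with each array left out, with quantile or median scaling, with probe sets of a gene averaged, and with probe sets present on at least 2 arrays. It was 4006 with 8 arrays as separate samples, 2382 with the technical replicate number as a replicate block, 3700 with an offset of 16, 4478 among probe sets at or above the median level and 6638 with the prior that follows the mean level, the last chosen after seeing the data. For the organ comparison these 5 numbers were 293, 69, 279, 151 and 731. Of the 10 genes' probe sets, these fits called 2, 1, 2, 5 and 7 lower in GFP+RFP+ cells and 0 higher, and 0 between organs. The first 2 fits take technical spread as error.

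Over all alternatives of the 24 population and 24 organ differences, 726 kept direction and call, 17 gained a call and 39 turned sign; the cause was not tested. Population differences turned under quantile normalization for Pfkl 1439148_a_at (0.016), Pfkp 1416069_at (0.089) and 1430634_a_at (0.029) and Ldha (0.133), and with median centring for Pfkp 1416069_at (0.022). Organ differences turned under median centring for Slc2a1 1426599_a_at (-0.027) and 1434773_a_at (-0.016), Pfkl 1453541_at (-0.043) and Pfkp 1437759_at (-0.048), and under quantile normalization for the last 2 (-0.004 and -0.038). With each array left out in turn, population differences ranged from -0.322 to 0.032 for Hk1 1420901_a_at, -0.022 to 0.022 for Pfkp 1416069_at and -0.141 to 0.062 for Pfkp 1430634_a_at. Organ differences then ranged from -0.297 to 0.057 for Hk1 1420901_a_at, -0.052 to 0.04 for Hk1 1437974_a_at, -0.047 to 0.041 for Pfkl 1439148_a_at, -0.051 to 0.072 for Pfkl 1453541_at, 0.00 to 0.203 for Pfkp 1430634_a_at, -0.11 to 0.12 for Pfkp 1437759_at, -0.082 to 0.136 for Slc2a1 1426599_a_at, -0.068 to 0.143 for Slc2a1 1434773_a_at and -0.223 to 0.765 for Slc2a3 1421924_at. The population difference of Slc2a1 lay between -0.378 and -0.725 over its 3 probe sets with any array left out. Counting marginal calls as present moved the number present on all arrays from 21 to 22, and median centring moved the number lower in both organs from 18 to 16.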
